A study of Mus musculus with 12 samples.

Results

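The genes described here encode enzymes of xenobiotic metabolism: the cytochromes P450 (symbols beginning with Cyp and a digit, Cyp51 left out), the UDP-glycosyltransferases (Ugt), the glutathione S-transferases (Gst of the alpha, mu, pi, theta, omega, kappa and zeta classes) and the sulfotransferases (Sult). They were chosen by symbol alone, which gave 83 of the 14096 genes listed for the glomeruli: 46 Cyp, 18 Gst, 14 Ugt and 5 Sult genes in 41 subfamilies. Cyp4b1-ps2, a pseudogene by its symbol, is counted with them. The mouse Cyp1a1 gene is not among the listed genes.

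Cytochromes P450 are heme enzymes of the endoplasmic reticulum and mitochondria that oxidise drugs, fatty acids, steroids, retinoids and vitamin D with electrons passed on by P450 reductase or ferredoxin. The conjugating enzymes then join the product, or the compound itself, to glucuronic acid (Ugt), glutathione (Gst) or sulfate (Sult), and organic anion and cation transporters carry the conjugate out of the cell. In the kidney these enzymes are known chiefly from the proximal tubule, which begins at the glomerulus.

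RNA was measured in glomeruli isolated from 12 male eNOS-/- mice on C57BL/6J, which lack endothelial nitric oxide synthase in every group. Diabetes was induced at 8 weeks of age with streptozotocin (STZ, 50 mg/kg daily for 5 days), and nondiabetic mice were injected with citrate buffer. From 10 weeks after induction, arctigenin (ATG, a plant lignan) at 40 mg/kg per day or its vehicle, 5% DMSO, was given by gavage for 8 weeks, and the mice were killed 18 weeks after induction. This gave 4 groups of 3 mice, called here vehicle-treated nondiabetic, ATG-treated nondiabetic, vehicle-treated diabetic and ATG-treated diabetic. Numbers 1 to 3 only name the mice of a group, and in each nondiabetic group mouse 1 carries no number in the labels and mice 2 and 3 carry the numbers 1 and 2. The treatment protocol in the labels also describes dissociation and cell sorting, which the study's methods do not mention.

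The listed genes took between about 23600000 and 29800000 recovered reads per mouse, and the 83 enzyme genes had between 25 and 22656 reads in a mouse. The counting error of a log2 value, at the mean reads of the gene, was between 0.0127 and 0.198 with a median of 0.0643, and the SD within groups was over 2 times as large for 67 of the 83 genes. Podocyte markers (30 genes) had a mean log2 value between 12.65 and 14.18 and were the highest of the marker lists in every mouse except ATG-treated nondiabetic mouse 1, where the mean of 33 distal tubule markers was 12.75. The mean of 57 proximal tubule markers, none of them a gene described here, was 11.66, 11.38 and 10.86 in vehicle-treated nondiabetic mice, 11.92, 12.50 and 11.85 in ATG-treated nondiabetic mice, 10.25, 10.42 and 9.32 in vehicle-treated diabetic mice and 10.44, 10.67 and 9.87 in ATG-treated diabetic mice. Every diabetic mouse was below every nondiabetic mouse. The libraries thus held tubule RNA in amounts that moved with the groups. In such bulk samples, fewer cells of a type and less RNA per cell cannot be told apart. Of 13 hepatocyte markers 5 were listed, with albumin (Alb) at a mean log2 value of 7.31. In diabetes under vehicle 14 of 33 distal tubule markers and 1 of the 5 hepatocyte markers fell, 3 of 25 mesangial markers rose and 2 fell, 16 of 29 endothelial and 3 of 7 erythrocyte markers rose, and none of the 30 podocyte markers passed limma's test.

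Promoter sequences from RefSeq (GRCm38.p6, 250 bases before to 50 bases after the gene start) were found for 63 of the 83 genes, 16 of them lower in diabetes. Short cores of motifs for regulators of these enzymes were searched on both strands. A gene with several listed starts was counted if any of its promoters held the core, while the percentages are of single promoters, so the 2 are not strictly alike. The xenobiotic response element core GCGTG, bound by the aryl hydrocarbon receptor, was found in 16 of the 63 genes and in 32.4% of 32817 mouse promoters of the same length. Of the 16 genes lower in diabetes, 3 held it (Cyp2j13, Sult1d1 and Ugt8a). The HNF4 core CAAAGTNCA was found in 6 of the 63 genes and in 1.41% of all promoters, and among the genes lower in diabetes only in Cyp2d26. The antioxidant response element core TGACNNNGC, bound by NRF2, was found in 6 of the 63 genes and in 12.4% of all promoters. It was in none of the 16, and in Cyp4f18, which was higher in diabetes. These 5 promoters are shown with the core in capitals (HNF4 in Cyp2d26, the xenobiotic response element in the next 3 and the antioxidant response element in Cyp4f18), followed by Cyp2e1, which was lower in diabetes and held none of the 3 cores. Cyp2j13 has 2 listed starts, of which 1 is shown. All are written in the direction of transcription. They come from chr15:82794196-82794495 on the minus strand (Cyp2d26), chr4:96077491-96077790 on the minus strand (Cyp2j13), chr5:87568957-87569256 on the minus strand (Sult1d1), chr3:125938603-125938902 on the minus strand (Ugt8a), chr8:72009577-72009876 on the minus strand (Cyp4f18) and chr7:140763569-140763868 on the plus strand (Cyp2e1).
Cyp2d26: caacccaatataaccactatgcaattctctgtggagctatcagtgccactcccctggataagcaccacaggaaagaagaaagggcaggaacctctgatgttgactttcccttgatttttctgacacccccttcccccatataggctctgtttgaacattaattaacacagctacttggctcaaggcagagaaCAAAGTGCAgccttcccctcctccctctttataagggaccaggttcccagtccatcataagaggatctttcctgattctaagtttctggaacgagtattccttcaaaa
Cyp2j13: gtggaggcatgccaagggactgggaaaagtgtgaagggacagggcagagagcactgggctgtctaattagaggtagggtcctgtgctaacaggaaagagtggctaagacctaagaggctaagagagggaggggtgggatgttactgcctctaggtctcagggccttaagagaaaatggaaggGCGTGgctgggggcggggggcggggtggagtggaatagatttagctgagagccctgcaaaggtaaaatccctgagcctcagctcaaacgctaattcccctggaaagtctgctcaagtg
Sult1d1: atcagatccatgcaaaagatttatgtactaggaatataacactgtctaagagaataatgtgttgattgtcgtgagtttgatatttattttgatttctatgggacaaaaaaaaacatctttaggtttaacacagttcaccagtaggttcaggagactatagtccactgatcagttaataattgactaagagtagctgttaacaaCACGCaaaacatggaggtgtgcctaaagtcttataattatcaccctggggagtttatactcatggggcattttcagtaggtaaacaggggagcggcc
Ugt8a: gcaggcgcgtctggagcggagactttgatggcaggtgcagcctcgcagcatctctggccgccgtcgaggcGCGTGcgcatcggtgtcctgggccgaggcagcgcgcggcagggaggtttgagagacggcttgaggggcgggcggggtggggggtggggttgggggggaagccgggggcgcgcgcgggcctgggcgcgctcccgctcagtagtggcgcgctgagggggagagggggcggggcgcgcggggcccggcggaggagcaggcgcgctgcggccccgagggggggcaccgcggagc
Cyp4f18: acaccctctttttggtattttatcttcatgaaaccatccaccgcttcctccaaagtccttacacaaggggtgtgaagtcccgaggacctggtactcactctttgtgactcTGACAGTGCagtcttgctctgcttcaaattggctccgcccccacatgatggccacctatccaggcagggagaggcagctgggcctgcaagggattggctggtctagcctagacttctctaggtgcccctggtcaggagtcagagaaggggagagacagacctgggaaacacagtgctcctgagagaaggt
Cyp2e1: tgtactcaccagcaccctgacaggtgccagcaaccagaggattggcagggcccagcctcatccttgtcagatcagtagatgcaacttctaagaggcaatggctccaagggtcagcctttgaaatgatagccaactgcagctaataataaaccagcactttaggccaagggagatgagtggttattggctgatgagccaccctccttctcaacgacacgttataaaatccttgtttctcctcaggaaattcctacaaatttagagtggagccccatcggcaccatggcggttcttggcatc
A match describes the letters only. Promoters of Cyp2d12, Cyp4a10, Cyp4a12a, Cyp4a14, Cyp24a1 and Ugt3a2 were not analysed here.

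Levels were compared between genes as linear normalised values per kilobase of the listed transcript. In vehicle-treated nondiabetic mice, Cyp4b1, a fatty acid and arylamine hydroxylase, had the highest level of the 83 genes at 8162 ± 835 per kilobase (SD, n = 3). The glutathione S-transferases Gstm1 (3796 ± 533), Gsta4 (3495 ± 248), which conjugates lipid peroxidation products, and Gstt1 (3112 ± 80.4) followed. Gstm1 and Gsta4 did not differ beyond their spread, while Gstt1 lay below Gsta4 by more than the SD of either. Gstm2 (2490 ± 75.2), the retinoic acid hydroxylase Cyp26b1 (2447 ± 378) and Cyp2e1 (2249 ± 723), which oxidises ethanol and acetone, came next and did not differ beyond their spread. Together the genes took 0.341 ± 0.0393% of the linear values of the listed genes in vehicle-treated nondiabetic mice, 0.463 ± 0.0688% in ATG-treated nondiabetic, 0.238 ± 0.0470% in vehicle-treated diabetic and 0.253 ± 0.0254% in ATG-treated diabetic mice, with the Ugt1a locus counted once (n = 3 each).

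**Figure D1:**
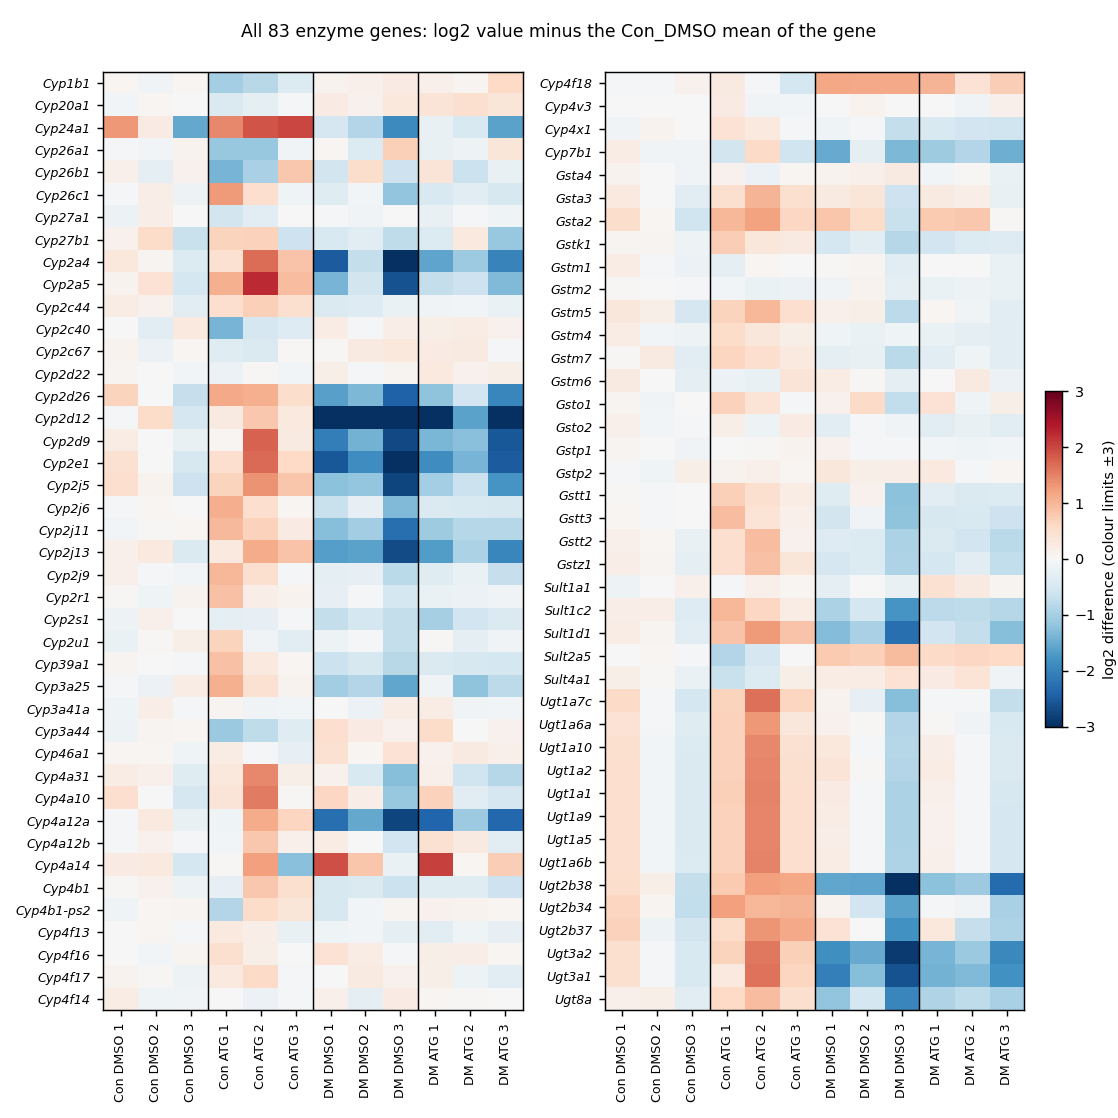
Log2 normalised value of each of the 83 enzyme genes in each of the 12 mice (columns), minus the mean of that gene in the vehicle-treated nondiabetic (Con_DMSO) mice, with blue lower and red higher and colours limited at ±3. Cyp2d12, Cyp2e1, Ugt2b38, Ugt3a1 and Ugt3a2 are blue in all 6 diabetic mice, while Gstp1, Gstm2 and Cyp4v3 are nearly white throughout.

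The genes differed widely in how much they varied. Gstp1, a pi class transferase abundant in many epithelia, stayed between 10.04 and 10.30 (log2) over all 12 mice, an SD of 0.0828. Cyp4v3, Gstm2, Cyp2d22, Gsta4, Gstp2 and Cyp3a41a also had an SD under 0.15. Cyp2d12 and Cyp2e1 were at the other end, with an SD of 1.86 and 1.60 and a range of 4.56 and 5.26 log2 units between the lowest and the highest mouse.

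The comparison of diabetic with nondiabetic mice under vehicle asked how the enzymes stood in diabetic glomeruli. Of the 83 genes, 20 fell and 2 rose in limma's moderated test, with p adjusted over the 14096 listed genes and a threshold of 0.05, and 61 did not pass. The share lower was 24.1%, against 8.63% of all listed genes, and the share higher was 2.41%, against 10.2% of all. The median log2 difference was -0.26 for the 83 genes and 0.01 for all listed genes. Over the alternatives the median of the 83 lay between -0.44, without vehicle-treated diabetic mouse 1, and 0.09, with the proximal tubule marker mean as a covariate. By family, 12 of 46 Cyp, 4 of 14 Ugt, 2 of 5 Sult and 2 of 18 Gst genes fell. Of the 14 Ugt genes 8 are Ugt1a genes that share reads, as described below. With that locus counted once, 20 of 76 genes fell, with a median of -0.30. The proximal tubule markers fell in the same comparison in 39 of 57 cases, with a median of -1.22.

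Cyp2d12, a P450 of the mouse Cyp2d cluster (chr15:82555098-82559413, mm10), fell most. Its log2 values were 10.27, 10.89 and 9.83 in vehicle-treated nondiabetic mice and 6.68, 7.01 and 6.57 in vehicle-treated diabetic mice. No diabetic value came within 2 log2 units of a nondiabetic one. The log2 difference was -3.58 ± 0.41 (SE, limma adjusted p = 0.0018), 11.9-fold lower, and none of the 57 proximal tubule markers had a lower difference. Its neighbours Cyp2d9 (-2.06 ± 0.48, limma adjusted p = 0.017) and Cyp2d26 (-1.80 ± 0.41, adjusted p = 0.015) fell too. Cyp2d22, which lies in the same cluster at chr15:82370527-82380260, read 10.20, 10.12 and 10.04 in the nondiabetic and 10.30, 10.06 and 10.21 in the diabetic mice, a difference of 0.07 ± 0.08. Reads of near-identical copies such as these could have been divided between them by the counting, so single Cyp2d, Cyp2a, Cyp4a, Gstm and Ugt values are uncertain to that extent.

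Cyp2e1 (chr7:140763832-140774977) had the highest level per kilobase of the 7 genes that fell by 4-fold or more. It read 12.35, 11.89 and 11.40 in the nondiabetic and 9.34, 10.01 and 8.32 in the diabetic vehicle-treated mice. The groups did not overlap, and the log2 difference was -2.66 ± 0.45 (limma adjusted p = 0.0058), 6.31-fold lower. Per kilobase its level went from 2249 ± 723 to 383 ± 205 (SD, n = 3 each). Cyp2a4, a steroid hydroxylase, fell by 2.08 on the log2 scale (SE 0.53, limma adjusted p = 0.022). The nearly identical Cyp2a5 was at -1.52 ± 0.49 and did not pass (adjusted p = 0.053).

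The Cyp2j enzymes, which turn arachidonic acid into epoxides, lie side by side on chromosome 4. Cyp2j13 (-1.97 ± 0.35), Cyp2j5 (-1.71 ± 0.44) and Cyp2j11 (-1.53 ± 0.27) fell, with limma adjusted p of 0.0064, 0.024 and 0.0062. Cyp2j6 (-0.75 ± 0.26) and Cyp2j9 (-0.44 ± 0.25) did not pass. Cyp2j5 had 12.53, 12.12 and 11.41 in the nondiabetic and 10.79, 10.86 and 9.27 in the diabetic mice. Cyp2s1 fell by 0.65 on the log2 scale (SE 0.14, adjusted p = 0.012) and Cyp3a25 by 1.16 (SE 0.31, adjusted p = 0.026).

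Within the fatty acid omega-hydroxylases of the Cyp4a subfamily, which also share chromosome 4, the genes parted. Cyp4a12a, known in the mouse kidney as the androgen-dependent enzyme that makes 20-HETE, read 8.78, 9.13 and 8.63 in nondiabetic and 6.58, 7.31 and 6.09 in diabetic vehicle-treated mice, a difference of -2.19 ± 0.42 (limma adjusted p = 0.0081). Cyp4a10 and Cyp4a14, classic targets of PPAR-alpha, were at -0.10 ± 0.52 and 0.86 ± 0.70 and did not pass. Cyp4a14 was spread from 5.54 to 6.35 in nondiabetic and from 5.86 to 8.00 in diabetic mice. The log2 value of Cyp4a12a minus that of Cyp4a10 was between -0.26 and 0.58 in the vehicle-treated nondiabetic mice and between -2.61 and -1.32 in the vehicle-treated diabetic mice. Under ATG it was between -0.21 and 0.91 in the nondiabetic and between -2.77 and -0.45 in the diabetic mice. Cyp4a12b (-0.12 ± 0.27) and Cyp4a31 (-0.53 ± 0.41) did not pass, nor did Cyp4b1 (-0.51 ± 0.21, adjusted p = 0.11).

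Cyp4f18 was the only P450 that rose. This leukotriene B4 hydroxylase of myeloid cells (chr8:71988482-72009626) read 5.62, 5.64 and 5.81 in nondiabetic and 6.85, 6.83 and 6.83 in diabetic vehicle-treated mice, a difference of 1.14 ± 0.21 (limma adjusted p = 0.0076), 2.21-fold. With the proximal tubule marker mean as a covariate it did not pass (1.08 ± 0.35, adjusted p = 0.13), and with the distal tubule mean it did (1.43 ± 0.28, adjusted p = 0.012). It had 32 to 114 reads per mouse. In no nondiabetic mouse did it reach the linear value that each listed gene had to reach in some mouse. Cyp4f18 was thus listed through diabetic mice alone, which favours a rise. Of 27 listed leukocyte markers 10 rose and 1 fell in the same comparison, with a median of 0.51. The part of leukocytes in its difference was not tested.

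**Figure D2:**
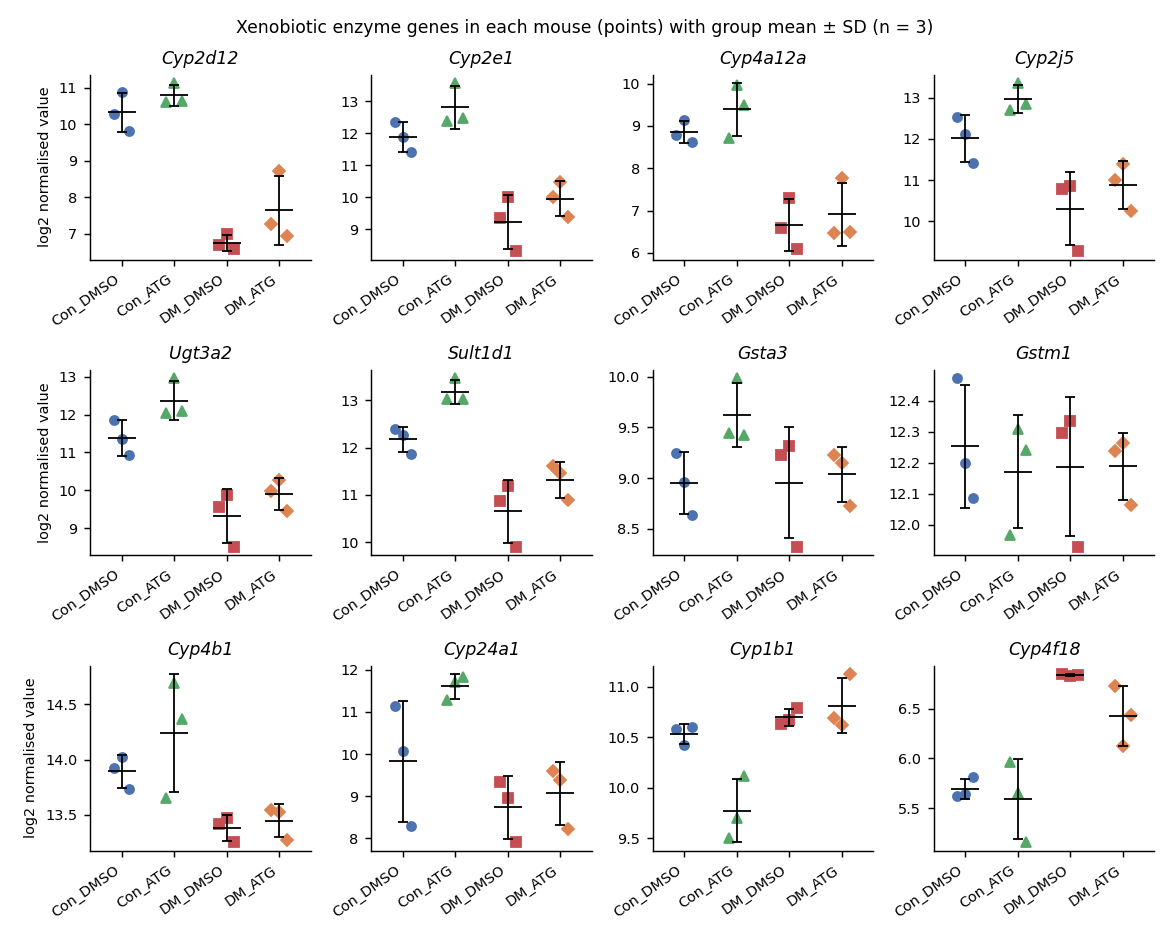
Log2 normalised value of 12 enzyme genes in each mouse, with the group mean and SD as bars (n = 3 per group) and a separate vertical scale for each gene. For Cyp2d12, Cyp2e1, Cyp4a12a, Ugt3a2 and Sult1d1 all 6 diabetic mice lie below all 6 nondiabetic mice. Gstm1 stays within 11.93 and 12.47, and Cyp1b1 is lowest in the ATG-treated nondiabetic mice.

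Of the 10 P450 genes outside families 1 to 4, most of which handle sterols, retinoids or vitamin D, 1 fell, close to the share of all listed genes (8.63%). Cyp39a1, an oxysterol hydroxylase, fell by 0.65 on the log2 scale (SE 0.17, limma adjusted p = 0.026). The other 9 of these 10 genes did not pass. They include Cyp7b1 (-1.05 ± 0.37), an oxysterol hydroxylase, Cyp27b1 (-0.51 ± 0.43), which activates vitamin D, Cyp24a1 (-1.10 ± 0.63), which breaks it down, the sterol hydroxylases Cyp27a1 (-0.05 ± 0.13) and Cyp46a1 (0.32 ± 0.15) and the retinoic acid hydroxylases Cyp26a1 (0.12 ± 0.33), Cyp26b1 (-0.22 ± 0.51) and Cyp26c1 (-0.54 ± 0.35). The last of the 9 is Cyp20a1 (0.23 ± 0.10). Cyp1b1 (0.16 ± 0.16), of families 1 to 4, did not pass either.

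Among the glycosyltransferases, Ugt3a2 (-2.07 ± 0.38), Ugt3a1 (-1.98 ± 0.39), Ugt2b38 (-2.05 ± 0.45) and Ugt8a (-1.22 ± 0.29) fell, with limma adjusted p of 0.0071, 0.0094, 0.013 and 0.018. Ugt3 enzymes use sugars other than glucuronic acid, and Ugt8a makes galactosylceramide. Ugt3a2 read 11.87, 11.34 and 10.93 in nondiabetic and 9.55, 9.88 and 8.51 in diabetic vehicle-treated mice. Ugt2b34 (-0.69 ± 0.43) and Ugt2b37 (-0.46 ± 0.55) did not pass.

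The 8 listed Ugt1a genes, the bilirubin and phenol glucuronidating group, share their last exons and differ in the first. In the GENCODE annotation (GRCm38) 1311 exonic bases in 4 blocks, from chr1:88215044-88215175 to chr1:88218127-88218997, belong to all 8. Their reads are accordingly close to equal: in vehicle-treated nondiabetic mouse 1, Ugt1a1, Ugt1a2, Ugt1a5, Ugt1a6b, Ugt1a9 and Ugt1a10 had between 597 and 637 reads, Ugt1a6a had 709 and Ugt1a7c had 1308. Reads on the shared exons were thus counted for each gene, and the values other than those of Ugt1a7c and Ugt1a6a are close to 1 measurement. None of the 8 passed in vehicle-treated mice, with differences from -0.47 ± 0.40 (Ugt1a7c) to -0.15 ± 0.36 (Ugt1a2).

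**Figure D3:**
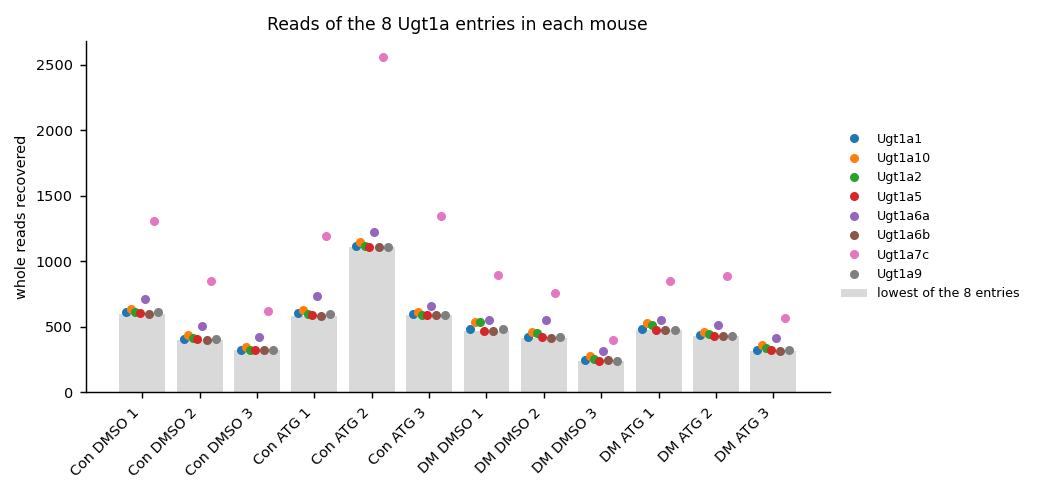
Whole reads recovered for the 8 Ugt1a genes (points) in each of the 12 mice, with the lowest of the 8 as a grey bar. Ugt1a7c is the highest and Ugt1a6a the next in every mouse, by only 10 reads over Ugt1a10 in vehicle-treated diabetic mouse 1 (549 against 539).

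Of the 18 glutathione S-transferases 2 (11.1%) fell, against 8.63% of all listed genes. The kappa and zeta class genes Gstk1 (-0.57 ± 0.15, limma adjusted p = 0.024), of mitochondria and peroxisomes, and Gstz1 (-0.62 ± 0.18, adjusted p = 0.039), an enzyme of tyrosine breakdown, fell. None of the 3 alpha, 6 mu, 2 omega, 2 pi and 3 theta class genes passed. Gstm1 was at -0.07 ± 0.14, Gsta4 at 0.17 ± 0.09, Gstp1 at 0.01 ± 0.07 and Gstt1 at -0.48 ± 0.26. Gsta3 read 9.25, 8.97 and 8.64 in nondiabetic and 9.23, 9.31 and 8.33 in diabetic vehicle-treated mice, with overlapping groups.

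Of the sulfotransferases, Sult1d1, which acts on catecholamines, read 12.38, 12.26 and 11.86 in nondiabetic and 10.87, 11.19 and 9.91 in diabetic vehicle-treated mice. It fell by 1.51 on the log2 scale (SE 0.30, limma adjusted p = 0.0094). Sult1c2 fell by 1.08 (SE 0.29, adjusted p = 0.027). Sult2a5, of the hydroxysteroid sulfotransferases, rose: it read 6.56, 6.61 and 6.49 in nondiabetic and 7.33, 7.26 and 7.49 in diabetic mice, a difference of 0.81 ± 0.19 (adjusted p = 0.017). With a tubule marker mean as a covariate it did not pass, at 0.68 ± 0.31 for the proximal (limma adjusted p = 0.24) and 0.43 ± 0.21 for the distal mean (adjusted p = 0.19). Like Cyp4f18, Sult2a5 reached the linear value required of a listed gene in diabetic mice only, which favours a rise. Sult1a1, the phenol sulfotransferase, was at -0.17 ± 0.11 and Sult4a1 at 0.29 ± 0.21, and neither passed.

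**Figure D4:**
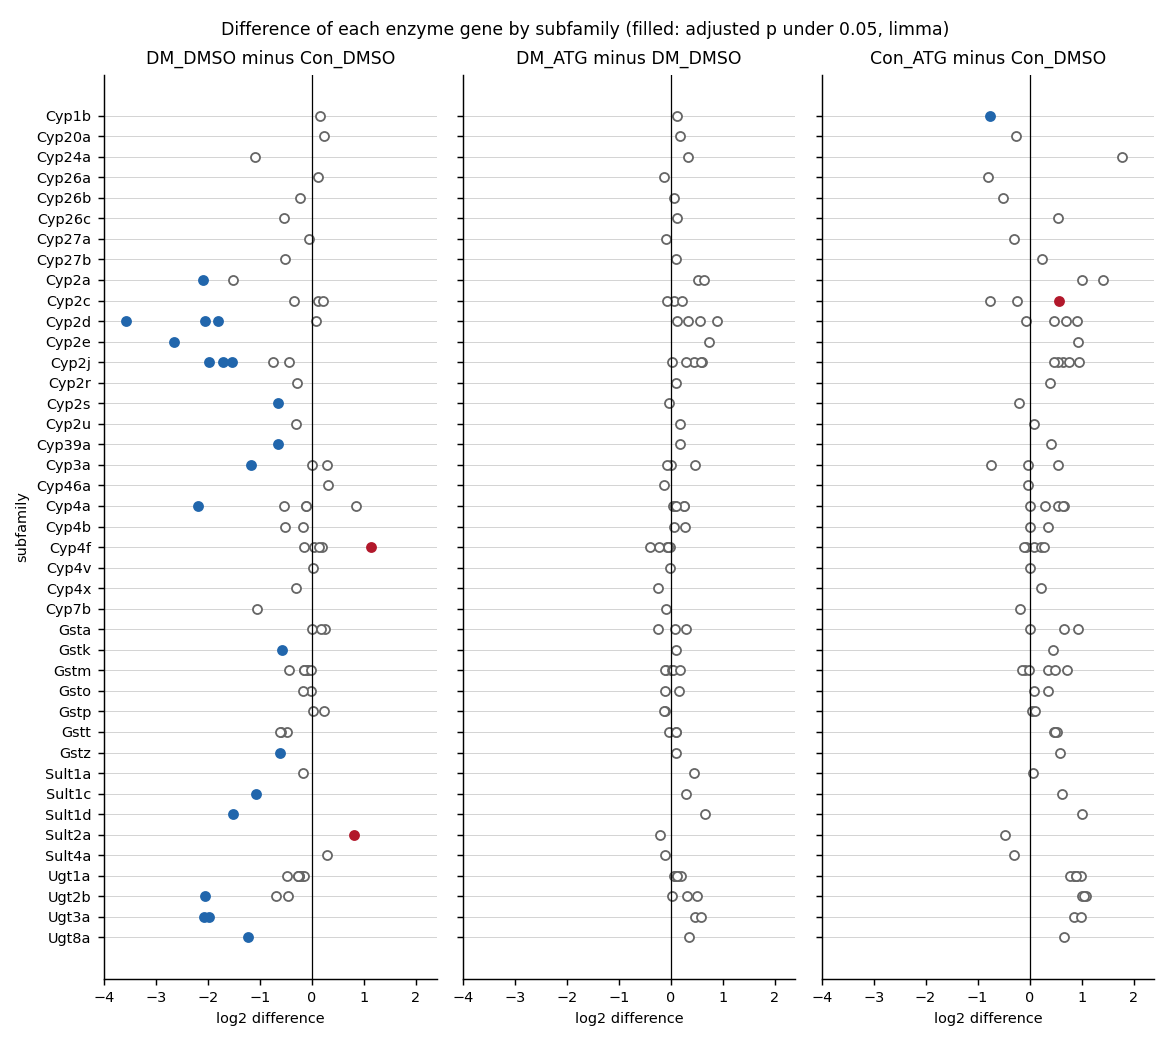
Log2 difference of each of the 83 enzyme genes (circles), by subfamily, for diabetes under vehicle (left), ATG in diabetic mice (middle) and ATG in nondiabetic mice (right). Filled circles passed the test, blue lower and red higher. The left panel holds 20 blue and 2 red circles, the middle panel none, and the right panel 1 of each.

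The diabetic and nondiabetic mice given ATG are other animals, so the difference comes from a separate set of 6. The variance of each gene was shared over all groups, so the tests are not independent of those under vehicle. All 20 genes that fell under vehicle also fell in the ATG-treated mice, and both genes that rose under vehicle rose. The same overlap for all listed genes is not given here. In all, 46 of the 83 genes (55.4%) fell and 7 (8.43%) rose, against 20.8% and 25.9% of all listed genes, and the median was -0.76 against 0.05. Over the alternatives that median lay between -0.96, without ATG-treated nondiabetic mouse 3, and 0.05, with the proximal tubule marker mean as a covariate. In the same comparison 54 of 57 proximal tubule markers fell, with a median of -1.74, and 28 of 29 endothelial and 21 of 25 mesangial markers rose. With the proximal tubule marker mean as a covariate the count lower went from 46 to 0, against 0.0568% of all listed genes lower in that fit, and none of the 7 that rose passed. With the distal tubule mean 1 gene was lower (Cyp2d12) and 2 higher (Cyp4f18 and Gsto1), against 2.04% and 6.58% of all. Without ATG-treated diabetic mouse 3 the count lower was 30, against 16.2% of all listed genes. Cyp2d12 was at -3.15 ± 0.41 (limma adjusted p = 0.00035), Cyp2e1 at -2.85 ± 0.45 (adjusted p = 0.00092) and Sult2a5 at 1.07 ± 0.19 (adjusted p = 0.0015). Among the 7 that rose, Cyp4f18, Sult2a5 and Cyp3a44 reached the linear value required of a listed gene in diabetic mice only, which favours a rise. The 46 include the 8 Ugt1a genes, whose differences lay between -1.26 and -0.95, all 5 Cyp2j and all 3 theta class Gst genes, and Cyp24a1 (-2.54 ± 0.63, adjusted p = 0.0079). With the Ugt1a locus counted once, 39 of 76 genes fell, with a median of -0.68. Over both treatments, all 6 diabetic mice were below all 6 nondiabetic mice in 24 of the 83 genes, against 11.4% of all listed genes.

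In diabetic mice, ATG against vehicle asked whether the drug moved the enzymes. None of the 83 genes passed in limma's test, and 0% of all listed genes did, the lowest adjusted p of the 83 being 0.91. At an unadjusted p under 0.05, 3 were higher and 1 lower, against 1.7% and 2.81% of all listed genes. The 4 with the lowest p in the higher direction were Sult1a1, Cyp2j11, Sult1d1 and Cyp2d12. Sult1a1 read 10.44, 10.72 and 10.51 under vehicle and lay between 10.81 and 11.20 under ATG, a log2 difference of 0.44 ± 0.11 without overlap. Cyp2d12 read 7.26, 8.72 and 6.94 under ATG, a difference of 0.89 ± 0.41, and the groups overlapped, mouse 2 being the high one. In the lower direction they were Gsta4 (-0.25 ± 0.09), Cyp4f18 (-0.41 ± 0.21), Gstp1 (-0.11 ± 0.07) and Cyp4f17 (-0.23 ± 0.17).

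The ATG-treated diabetic mice were all above the vehicle-treated ones in 3 of the 83 genes (3.85% of all listed genes) and all below in 5 (6.32% of all). The median log2 difference of the 83 genes was 0.10, with 60 differences (72.3%) above 0, against 48.2% of all listed genes, while the proximal tubule marker mean was 0.33 higher. With the Ugt1a locus counted once, 53 of 76 were above 0. Over the alternatives the median turned sign, from -0.07 without vehicle-treated diabetic mouse 3 to 0.21 without mouse 2 of that group. None of the 20 genes that fell in diabetes passed for ATG. This comparison and the one for diabetes under vehicle share the vehicle-treated diabetic mice.

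In nondiabetic mice, ATG was followed by 1 higher and 1 lower gene among the 83, against 0.709% and 4.51% of all listed genes. Cyp1b1, a P450 of mesenchymal and vascular cells (chr17:79706953-79715041), read 10.58, 10.42 and 10.60 under vehicle and 9.51, 9.70 and 10.11 under ATG. The groups did not overlap, and the log2 difference was -0.76 ± 0.16 (limma adjusted p = 0.025), 1.70-fold lower. Cyp2c44, an arachidonic acid epoxygenase (chr19:44005022-44029247), read 8.14, 8.05 and 7.59 under vehicle and 8.42, 8.65 and 8.40 under ATG, a difference of 0.56 ± 0.14 (adjusted p = 0.048). In these mice 19 of 25 mesangial and 12 of 29 endothelial markers were lower under ATG, with medians of -0.91 and -0.62, and the proximal tubule marker mean was 0.79 higher. With that mean as a covariate neither gene passed, Cyp1b1 being at -0.57 ± 0.18 (adjusted p = 0.22) and Cyp2c44 at 0.44 ± 0.18 (adjusted p = 0.34). With the distal tubule mean Cyp1b1 passed (-0.65 ± 0.15, limma adjusted p = 0.048) and Cyp2c44 did not (0.61 ± 0.16, adjusted p = 0.063).

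The median log2 difference was 0.46, against -0.04 for all listed genes, and 63 of the 83 differences (75.9%) were above 0, against 43.8% of all, although only Cyp2c44 passed. With the Ugt1a locus counted once, 56 of 76 were above 0. Over the alternatives the median lay between 0.01, with the proximal tubule marker mean as a covariate, and 0.58, without ATG-treated nondiabetic mouse 3. Cyp24a1 had the largest, reading 11.13, 10.06 and 8.29 under vehicle and 11.27, 11.71 and 11.83 under ATG (1.78 ± 0.63, limma adjusted p = 0.10). ATG-treated nondiabetic mouse 3 stood apart from the other two, with a podocyte marker mean of 13.69 against 12.65 and 13.05. Without it 10 genes were higher and 8 lower, against 7.55% and 17.5% of all listed genes. Without vehicle-treated diabetic mouse 3, which enters only through the shared variance, 7 were higher and 1 lower, against 3.24% and 6.83% of all. Without vehicle-treated nondiabetic mouse 1 no gene passed in either direction. Over the 12 fits that left out a mouse, Cyp2c44 passed in 2 and Cyp1b1 in 8. This comparison shares the vehicle-treated nondiabetic mice with the one for diabetes under vehicle.

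The difference between the ATG effects, in diabetic minus in nondiabetic mice, passed for none of the 83 genes in limma's test, against 0.539% of all listed genes higher and 0.00709% lower. At an unadjusted p under 0.05, 4 were higher and 1 lower, against 9.63% and 3.23% of all listed genes. Cyp1b1 came nearest at 0.88 ± 0.22 (adjusted p = 0.12), followed by Cyp20a1 at 0.43 ± 0.14 (adjusted p = 0.22). Without ATG-treated nondiabetic mouse 3 these 2 genes passed, at 1.05 (limma adjusted p = 0.016) and 0.54 (adjusted p = 0.025), against 5.11% of all listed genes.

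The proximal tubule markers varied within groups as well, and the slope of each gene on their mean was estimated from these deviations within the 4 groups, as log2 units per log2 unit. Of the 83 genes, 28 (33.7%) had a slope above 0 in limma's test, against 3.16% of all listed genes, and none a slope below 0, against 0.106% of all. The median slope was 0.45 for the 83 genes and 0.00 for all. The 28 include the 8 Ugt1a genes and come to 21 when these are counted once. Slopes were 1.37 ± 0.09 for Cyp2j5, 1.18 ± 0.08 for Ugt3a2, 1.39 ± 0.12 for Cyp2e1, 0.81 ± 0.08 for Gsta3, 0.55 ± 0.06 for Gstz1 and 0.90 ± 0.10 for Sult1d1, each with an adjusted p of 0.00054 or lower. The slopes nearest 0 belonged to Cyp4b1-ps2 (0.01 ± 0.30), Cyp46a1 (-0.01 ± 0.15), Gsta4 (-0.01 ± 0.09), Cyp26b1 (0.03 ± 0.51), Gstp2 (-0.03 ± 0.13) and Cyp3a44 (0.03 ± 0.22). Without vehicle-treated diabetic mouse 3, the mouse with the lowest marker mean, 14 slopes passed, against 1.55% of all listed genes. With the number in the labels as a block, 2 passed, against 0.27% of all.

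Of the 20 genes that fell in diabetes under vehicle, 12 had a slope that passed. The slopes of the other 8 did not pass and were 0.91 ± 0.30 for Cyp4a12a, 0.81 ± 0.31 for Cyp2d12, 0.66 ± 0.20 for Sult1c2, 0.46 ± 0.22 for Cyp2j11, 0.21 ± 0.13 for Gstk1, 0.14 ± 0.30 for Cyp3a25, 0.14 ± 0.17 for Cyp39a1 and -0.07 ± 0.13 for Cyp2s1. The first 3 were larger than the slope of Gstz1, which passed. When the marker mean was added to the fit, the count lower went from 20 to 0, against 0.0922% of all listed genes lower. Of the 20 estimates 18 stayed below 0, which the choice of these genes as lower in the same mice favours. The largest was that of Cyp2d12 (-2.52 ± 0.52, limma adjusted p = 0.057). Cyp2e1 was at -0.84 ± 0.20 (adjusted p = 0.069) and 2 estimates turned above 0, Cyp2j5 at 0.08 and Gstz1 at 0.10. The marker mean itself moved with diabetes, so the covariate and the disease cannot be told apart in these mice. With the mean of 33 distal tubule markers as the covariate instead, 6 genes were lower (Cyp2d12, Cyp2e1, Cyp2j11, Cyp2j13, Cyp2s1 and Cyp4a12a), against 6.14% of all listed genes.

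In the same fit with the proximal tubule mean, 2 of the 83 genes were higher in diabetes, against 0.298% of all listed genes: the alpha class transferases Gsta3 (1.06 ± 0.14, limma adjusted p = 0.025) and Gsta2 (1.76 ± 0.24, adjusted p = 0.027). Both conjugate electrophiles with glutathione. Gsta2 is described here after its values were seen. Their slopes on the markers were among those that passed (0.81 ± 0.08 and 1.16 ± 0.15), while their plain differences were 0.00 ± 0.27 and 0.25 ± 0.39, higher than those of 56 of the 57 tubule markers. In ATG-treated mice the same fit gave 0.85 ± 0.17 (limma adjusted p = 0.050) for Gsta3 and 1.65 ± 0.30 (adjusted p = 0.042) for Gsta2. The plain differences in those mice were below 0, at -0.58 for Gsta3 and -0.40 for Gsta2, and did not pass, so the sign turned with the covariate. Gsta2 read 8.83, 8.38 and 7.72 in vehicle-treated nondiabetic and 9.15, 8.87 and 7.64 in vehicle-treated diabetic mice, so the groups overlapped. With the distal tubule mean as the covariate neither passed.

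**Figure D5:**
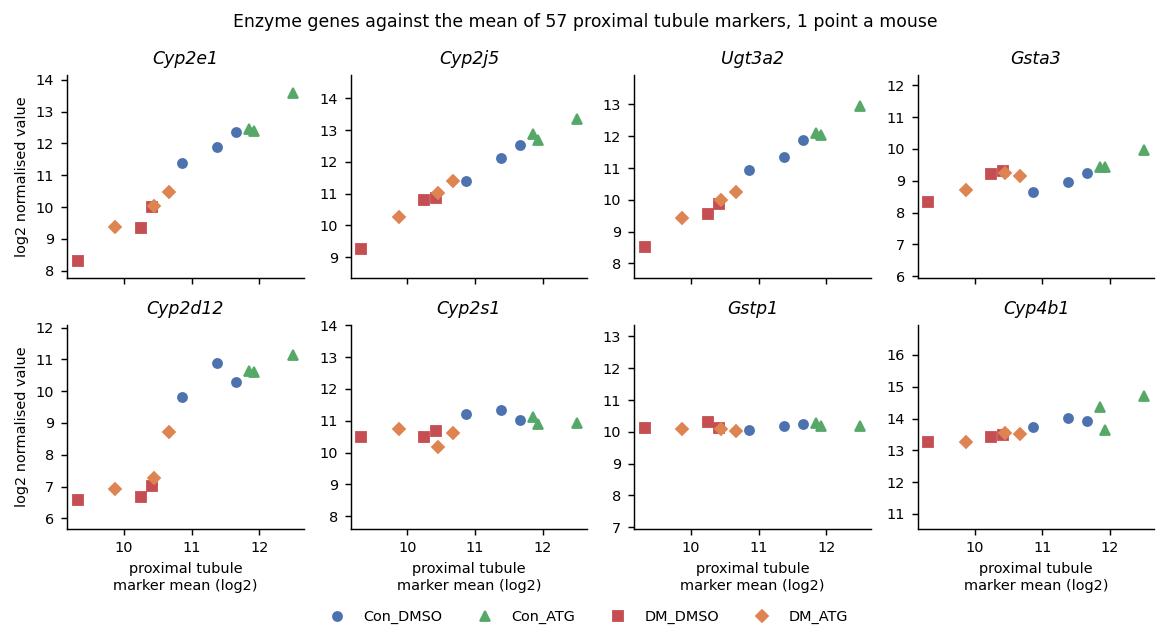
Log2 normalised value of 8 enzyme genes against the mean of 57 proximal tubule markers (log2), with 1 point per mouse, the group given by shape and colour, and a vertical span of 6.4 log2 units in every panel. Cyp2e1, Cyp2j5 and Ugt3a2 rise with the marker mean across the mice, the vehicle-treated diabetic and nondiabetic mice overlap in Gsta3 while their marker means do not, the diabetic mice lie well below the nondiabetic ones for Cyp2d12, and Gstp1 is flat.

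The partners of these enzymes were counted from lists written by hand, some of whose genes stand on more than 1 list. Their counts are to be read against 8.63% lower and 10.2% higher among all listed genes, and against 68.4% lower among the proximal tubule markers. Of 21 genes for electron transfer and cofactors, 4 fell and 1 rose in diabetes under vehicle. Papss2, which makes the sulfate donor, fell by 1.31 on the log2 scale (limma adjusted p = 0.020) and Gclc, the rate-limiting enzyme of glutathione synthesis, by 0.71 (adjusted p = 0.030), whereas P450 reductase (Por) was at -0.37 (adjusted p = 0.095). Of 48 other oxidising, reducing and hydrolysing enzymes 16 fell and 5 rose, of 19 other conjugating enzymes 10 fell and 2 rose, and of 32 transporters 12 fell and 2 rose. The shares lower were 33.3%, 52.6% and 37.5%. The organic anion transporter Slco1a1 (-2.91, limma adjusted p = 0.0027) and the methyltransferase Inmt (-2.36, adjusted p = 0.0036) fell, and the microsomal epoxide hydrolase Ephx1 rose (0.44, adjusted p = 0.016).

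Of 24 nuclear receptors and regulators 4 (16.7%) fell and 3 (12.5%) rose. Ppara (-1.29, limma adjusted p = 0.006), the bile acid receptor Nr1h4 (-1.48, adjusted p = 0.019), Vdr (-0.75, adjusted p = 0.012) and Nr0b2 (-1.08, adjusted p = 0.040) fell, and Pparg rose (0.78, adjusted p = 0.007). The receptor Ahr was at 0.09 and Nfe2l2, which encodes NRF2, at -0.03. Of 22 targets of PPAR-alpha 9 (40.9%) fell and 1 rose, of 20 targets of NRF2 2 fell and 2 rose, close to the shares of all listed genes, and none of the 3 listed targets of the aryl hydrocarbon receptor passed. Of 7 androgen-responsive kidney genes 1 rose and 5 fell, among them Slco1a1 and Kap (-3.17, adjusted p = 0.006) and Slc7a13 (-2.91, adjusted p = 0.006), and the latter pair also stand among the proximal tubule markers. No gene of these lists passed for ATG in diabetic mice.

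Leaving out 1 mouse moved the count of genes lower in diabetes under vehicle to 8 without vehicle-treated nondiabetic mouse 2, 9 without mouse 1 of that group and 12 without vehicle-treated diabetic mouse 1, against 2.31%, 3.32% and 3.18% of all listed genes. In each of the 12 fits that left out a mouse, 8 of the 20 passed: Cyp2d12, Cyp2e1, Cyp2j11, Cyp2j13, Cyp4a12a, Sult1d1, Ugt3a1 and Ugt3a2. Cyp4f18 also passed in each.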

How the data were processed

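RNA of glomeruli from 12 mice, 3 in each of 4 groups, was analysed from 1 deposited table per mouse. The authors deposited log2 values, described in the tables as normalised. The submitters' processing notes name limma, without a version, and mm10. The aligner, the counting software and the normalisation are not given in the sources used here. After taking powers of 2, 83.4% to 84.0% of the values under 2000 in each mouse came within 0.02 of a whole number of reads, so that they are reads multiplied by 1 factor per library and not divided by gene length. The 6 enzyme genes with values that are not whole have several listed transcripts. Each of the 14096 listed genes reached 100 on the linear scale in some mouse, a filter already in the deposited tables.

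The enzyme genes were taken by symbol, and each mouse was put in its group from its label. All 12 mice entered 1 fit of the 4 groups in limma (version 3.58.1, R 4.3.3) with a mean-variance trend, on the log2 values as deposited with no further filter or pseudocount. Contrasts were diabetes and ATG within each level of the other, and the difference between the ATG effects. A further fit with the mean of the proximal tubule markers as a term gave the slopes. P-values were adjusted over all listed genes by Benjamini-Hochberg, and a gene passed at an adjusted p under 0.05. Nothing in the labels says that the mice of a group came from separate litters or cages, and the p-values measure the spread between these mice.

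The enzyme groups, gene lists and alternatives were chosen with earlier results of these data known. Named genes are up to 12 per direction with the lowest p among those passing for diabetes under vehicle, up to 6 per direction in the other comparisons, or up to 4 where none passed, the 6 lowest p and 6 flattest slopes, the gene with the highest mean log2 of a subfamily, and a fixed set of well-known enzymes; others are named to complete a subfamily. Alternatives were a median-ratio scaling, a linear value of at least 10 in every mouse, a mean log2 of at least 6, 10 added before taking log2, only the groups compared, the number in the labels as a block (with both unnumbered mice as a level of their own), each mouse left out, both unnumbered nondiabetic mice left out, no mean-variance trend, limma-voom on the recovered reads, either tubule marker mean as a covariate, and a log2 difference of at least 1 (slope 0.5). Promoters were taken from RefSeq, and those shown were chosen after their motifs were seen. An item of the regulator list is not reported here. Scripts used Python 3.11.15, pandas 2.3.3 and matplotlib 3.10.9.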

Additional observations from a re-analysis of the deposited data

How the results depend on the processing

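The counts of genes passing in each comparison were recomputed under every alternative. With the proximal tubule marker mean as a covariate, the genes lower in diabetes went from 20 to 0 under vehicle and from 46 to 0 under ATG, those higher under ATG from 7 to 2, and those for ATG in nondiabetic mice from 1 to 0 in each direction. The 2 genes higher in diabetes in this fit, Gsta2 and Gsta3 under either treatment, were not among those higher without the covariate, all of which lost the call. With the distal tubule mean, 6 and 1 were lower in diabetes (6.14% and 2.04% of all listed genes), 2 were higher in diabetes under ATG (6.58%) and 0 were higher with ATG in nondiabetic mice, and the slopes on it numbered 17 above and 2 below 0, against 14.1% and 10.2% of all listed genes (28 and 0 on the proximal mean). The labels number all but 2 mice and do not say what a number marks. The deviations of mice with the same label number from their group means had r from -0.59 to 0.34, over 0.1 in 5 of 13 pairs, so the numbers were not taken to pair the mice. With the label number as replicate block, 1 gene was higher and 12 lower in diabetes under vehicle (5.52% and 4.24% of all listed genes), 29 were lower under ATG (13.4% of all), 4 were higher with ATG in nondiabetic mice (1.64%) and 2 slopes passed (0.27%). The block leaves fewer residual degrees of freedom. With only the groups compared in the fit, and with both unnumbered nondiabetic mice left out, 0 genes passed in either direction for ATG in nondiabetic mice, and in the latter 1 slope was below 0. Requiring a log2 difference of 1 left 1 gene higher in diabetes under vehicle (0.951% of all), 29 lower and 2 higher under ATG (6.21% and 4.02%), and 0 for ATG in nondiabetic mice. Leaving out each mouse gave 8 to 25 genes lower and 1 to 3 higher in diabetes under vehicle, 30 to 49 lower (30 without ATG-treated diabetic mouse 3) and 6 to 12 higher under ATG (12 without ATG-treated nondiabetic mouse 3), 0 to 10 higher and 0 to 8 lower for ATG in nondiabetic mice, 0 to 2 for the difference between the ATG effects, and 14 to 36 slopes above and 0 to 1 below 0. No gene passed for ATG in diabetic mice under any of these. The other alternatives left every count within 1.5 times. Median differences ranged from -0.44 to 0.09 for diabetes under vehicle and from -0.96 to 0.05 under ATG, and for ATG from -0.07 to 0.21 in diabetic and from 0.01 to 0.58 in nondiabetic mice. Of the named genes' results under the alternatives, 2008 kept their side of the threshold, 151 lost the call, 13 gained it and 3 changed sign with a call in either fit. The last were Cyp2j5 (0.0756) and Gstz1 (0.0985) for diabetes under vehicle with the proximal tubule mean, neither passing, and Gsto1 with the distal tubule mean, which went from -0.01 to 0.875 and passed. Signs also turned with a call for diabetes under ATG, beyond these 3. Gsto1 (-0.20) turned above 0 with the distal mean, and Gsta3 (-0.58) and Gsta2 (-0.40) with the proximal mean. Counting error was at least as large as the SD within groups for Gstp2, and close to it for Gsto2 (0.147 against 0.148) and Cyp3a41a (0.146 against 0.172). Where no cause is given, the cause was not tested.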

Other observations

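The reads of a Ugt1a gene above the lowest of the 8 in the same mouse are those that cannot be common to all 8. For Ugt1a7c they numbered 711, 450 and 299 in vehicle-treated nondiabetic mice, 607, 1445 and 757 in ATG-treated nondiabetic mice, 426, 339 and 157 in vehicle-treated diabetic mice and 378, 457 and 252 in ATG-treated diabetic mice. It was the largest of the 8 in every mouse. For Ugt1a2 they were 16, 12 and 4, then 15, 7 and 2, in nondiabetic mice without and with ATG, and 71, 35 and 15, then 36, 18 and 25, in diabetic mice without and with ATG. Both gene values were chosen after they had been seen and were not tested.

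Cyp26b1, which clears retinoic acid, was among the enzymes with the highest level per kilobase and passed no comparison, with log2 values of 13.63, 13.21 and 13.60 in vehicle-treated nondiabetic mice, 12.08, 12.49 and 14.29 in ATG-treated nondiabetic mice, 12.92, 14.00 and 12.85 in vehicle-treated diabetic mice and 13.87, 12.83 and 13.25 in ATG-treated diabetic mice. The highest and the lowest value came from the same group. Cyp24a1 minus Cyp27b1, the vitamin D catabolic enzyme against the activating one, lay between 1.28 and 3.32 log2 units in vehicle-treated nondiabetic, 2.93 and 4.77 in ATG-treated nondiabetic, 0.99 and 2.10 in vehicle-treated diabetic and reached at most 2.32 in ATG-treated diabetic mice. These are log2 values without division by length, so their difference describes change between mice and not which transcript was more abundant.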
